A study of Mus musculus with 18 samples.

Results

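The BCL2 family genes described here are 10 genes of the mitochondrial (intrinsic) pathway of apoptosis: *Bcl2*, *Bcl2l1*, *Mcl1*, *Bcl2l11*, *Bmf*, *Bbc3*, *Pmaip1*, *Bid*, *Bax* and *Bak1*. They were chosen by name, are 10 of 35773 genes in the files, and all 10 were among the 16901 genes tested. They were followed in bulk RNA-seq of 18 samples of mouse pluripotent stem cells, 3 replicates in each of 6 groups, all labelled wild type and of strain 129S2/SvPasCrl. ESCs were naive embryonic stem cells grown in 2i and LIF. AFSCs were primed pluripotent cells derived from blastocysts in activin A and FGF2. ASCs (advanced pluripotent stem cells) were derived from AFSCs by culture in ABCL, a medium that holds activin A, BMP4 and LIF with CHIR99021, an agonist of Wnt signalling, and ESC-ASCs were ESCs moved into the same medium. EpiLCs were epiblast-like cells, and EpiSCs were epiblast stem cells. AFSC lines came from crosses with reporter males of mixed background, and ASC lines were grown from colonies picked for the *Oct4*-driven GFP reporter. The study describes the transcriptomes it clustered as biological replicates. The labels do not say whether replicates are separate cultures, so the p-values measure the spread between these samples, which may be technical.

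Proteins of this family decide whether the outer mitochondrial membrane is opened, the step that releases cytochrome c and starts the caspase cascade. BCL2, BCL-XL (encoded by *Bcl2l1*) and MCL1 are the anti-apoptotic members. The BH3-only proteins BIM (*Bcl2l11*), BMF, PUMA (*Bbc3*), NOXA (*Pmaip1*) and BID bind to them or to the effectors, and the effectors BAX and BAK (*Bak1*) form the pores. Pluripotent cells are known to die readily when this balance is disturbed. Much of the control of these proteins lies in their stability and localisation, and transcripts alone were measured here.

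The samples outside ESC-ASCs held 4961934 to 9906473 counts each, and those of ESC-ASCs 17813619 to 18071600. The ESC-ASC tables were also counted in a separate run, by their headers, so depth, run and cell type cannot be told apart for that group. The replicate 1 samples of ESCs, ASCs, EpiLCs and AFSCs lay farther from replicates 2 and 3 than those lay from each other. To a lesser degree replicate 2 stood apart in EpiSCs (chi-square over its degrees of freedom 10.5 and 9.37 against 1.88) and in ESC-ASCs (6.49 and 7.56 against 2.37). Mitochondrial transcripts took 14.4% of counts in AFSC replicate 1 against 1.51% and 1.92% in the other AFSC samples, and 8.08% in ESC replicate 1 against 2.70% and 2.92%. The labels held against marker genes: 7 naive markers summed to between 2938 and 5256 normalised read counts per kb in ESCs, ASCs and ESC-ASCs and to between 9.02 and 192 in the other groups. The 4 formative and primed markers summed to 1561 to 4044 in EpiLCs, AFSCs and EpiSCs and to at most 312 in the other groups. Of the naive markers, 1 was at 0 in AFSCs and 2 in EpiSCs. The 7 2-cell-like genes stood at 1988 to 2463 in ASCs against at most 219 elsewhere, and the 5 trophoblast markers at 1188 to 1446 in AFSCs against at most 632 elsewhere. Fibroblast markers summed to between 17.05 and 126 over all samples, and the 5 primitive endoderm markers to between 7.88 and 38.7. Their part in the results below was not tested.

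Levels are given as normalised read counts per kb, that is counts divided by a size factor for depth and by the exonic length of the gene, and are listed for replicates 1, 2 and 3 in that order. The test between groups was the quasi-likelihood test of edgeR, fitted over all 18 samples, and a gene passed at an adjusted p (Benjamini-Hochberg over 16901 genes) below 0.05. All 10 members passed the test for any difference among the 6 groups, as did 94.4% of all genes tested. The range of the 6 group means differed widely among the members. It was taken on the log2 scale after adding 0.1, which narrows it where a mean is low (*Bcl2*, 0.108 in ESC-ASCs). *Pmaip1* (9.1 on the log2 scale) lay at the 97.9th percentile of this range among all genes tested, *Bcl2* (5.6) at the 88.7th, *Bmf* (2.8) at the 66.3rd and *Bcl2l11* (2.5) at the 62.9th. The other 6 members lay between the 12.4th and 38.4th percentiles, with *Bak1* and *Bax* the lowest. In bulk samples, fewer cells that express a gene and less RNA per cell cannot be told apart.

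**Figure D1:**
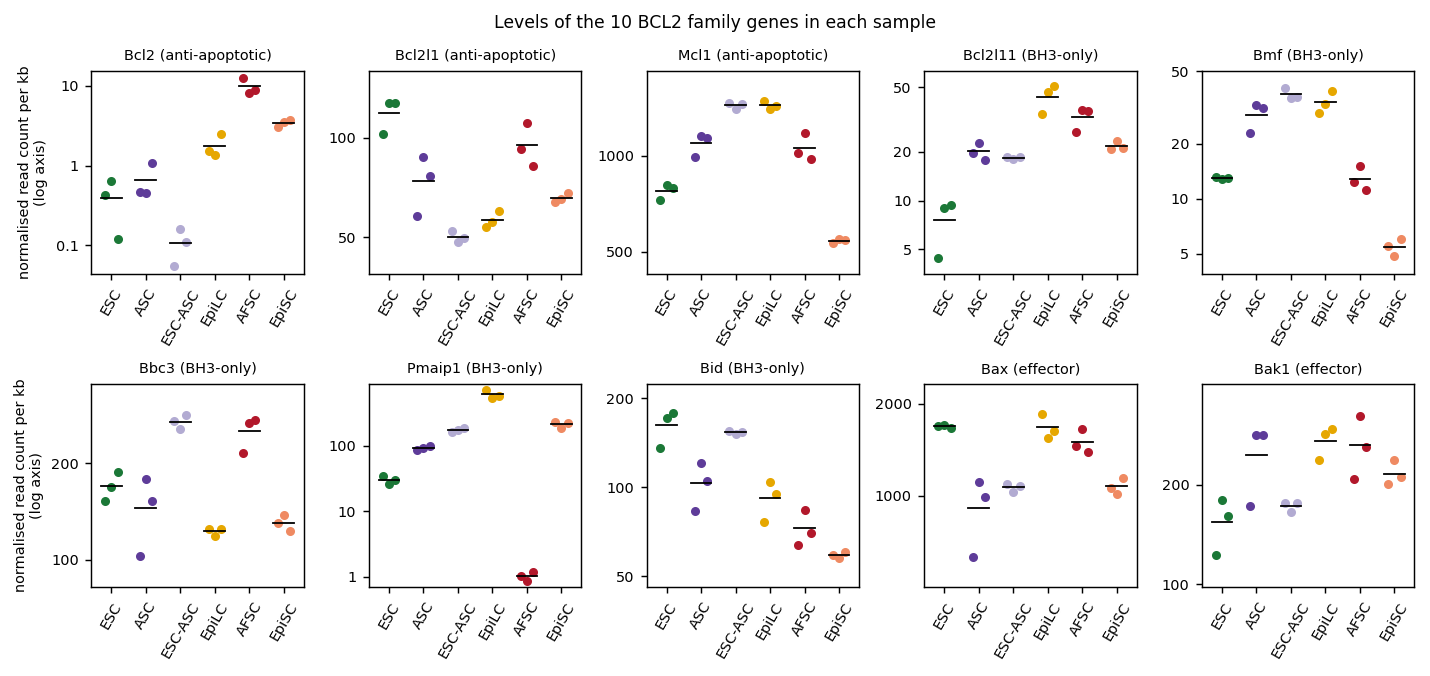
Normalised read counts per kb (log axis, a separate scale in each panel) of the 10 genes in each sample, with 3 points per group for replicates 1 to 3 from left to right and a bar at the group mean. *Pmaip1* lies near 1 in the 3 AFSC samples and between 538 and 696 in the 3 EpiLC samples, and *Bcl2* is highest in AFSCs.

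The promoters of *Bcl2*, *Bcl2l11* and *Bmf* are printed because these 3 members varied most after *Pmaip1*. Each sequence runs 5′ to 3′ on the strand of the gene, from 250 bases before to 50 after a RefSeq transcription start (GRCm38.p6), and the start nearest to the gene's 5′ end in the files was taken. Capitals mark the letters GGGCGG, the GC box bound by SP1-type factors, and TGTTTAC, a core forkhead motif, on either strand.
Bcl2, chr1:106714241-106714540, - strand: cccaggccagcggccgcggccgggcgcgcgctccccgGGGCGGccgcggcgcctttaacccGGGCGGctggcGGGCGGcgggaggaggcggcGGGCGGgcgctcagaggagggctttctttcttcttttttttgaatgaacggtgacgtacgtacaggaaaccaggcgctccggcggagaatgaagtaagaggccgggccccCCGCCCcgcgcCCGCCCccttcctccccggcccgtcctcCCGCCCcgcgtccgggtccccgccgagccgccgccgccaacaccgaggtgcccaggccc
Bcl2l11, chr2:128125788-128126087, + strand: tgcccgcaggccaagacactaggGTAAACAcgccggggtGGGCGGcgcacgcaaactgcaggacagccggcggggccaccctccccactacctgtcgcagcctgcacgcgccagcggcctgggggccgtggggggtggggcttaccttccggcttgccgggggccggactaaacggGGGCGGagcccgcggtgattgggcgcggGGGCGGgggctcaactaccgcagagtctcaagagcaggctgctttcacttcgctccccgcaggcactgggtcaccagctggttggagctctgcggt
Bmf, chr2:118549637-118549936, - strand: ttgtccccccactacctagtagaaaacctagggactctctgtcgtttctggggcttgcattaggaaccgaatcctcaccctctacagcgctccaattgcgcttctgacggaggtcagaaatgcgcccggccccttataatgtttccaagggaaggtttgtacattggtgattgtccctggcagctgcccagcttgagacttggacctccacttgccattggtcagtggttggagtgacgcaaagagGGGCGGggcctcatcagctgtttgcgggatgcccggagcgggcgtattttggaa
The *Bcl2* window held 7 GC box matches and 44 CG dinucleotides, more than or as many as 98.1% of 32851 promoters of the same length, whose median was 7. The *Bcl2l11* window held 3 GC boxes, 27 CG dinucleotides and 1 forkhead match, near its 5′ end. The *Bmf* window held 1 GC box and 13 CG dinucleotides. GC boxes occurred in 35.7% and the forkhead letters in 3.65% of all promoters. Windows were read for 9 members, and the forkhead letters occurred in that of *Bcl2l11* only. The E-box letters CACGTG, found in 7.15% of promoters, occurred at 2 places in the *Bax* window and in none of the other 8. A match is a description of the letters and says nothing of binding.

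*Mcl1* was the most abundant anti-apoptotic member in every sample. It lies on chromosome 3 (95658788 to 95663176, + strand). Its level was 725, 810.1 and 793 in ESCs, 993, 1154 and 1138 in ASCs, 1469, 1409.7 and 1456 in ESC-ASCs, 1486, 1409.7 and 1432 in EpiLCs, 1019, 1178 and 978 in AFSCs, and 532, 547 and 543 in EpiSCs. ESC-ASCs and EpiLCs were the highest and did not differ beyond their spread (adjusted p = 0.907). ASCs and AFSCs followed without a detectable difference (adjusted p = 0.876). EpiSCs were the lowest, below every ESC sample (log2 fold change -0.53 ± 0.12 SE, adjusted p = 0.000625).

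*Bcl2l1* (chromosome 2, 152780668 to 152831728, - strand) had nearly the reverse order, EpiSCs apart. Its level was 102, 127 and 127 in ESCs, 58.1, 87.6 and 76.3 in ASCs, 52.0, 48.5 and 49.9 in ESC-ASCs, 53.7, 55.6 and 60.2 in EpiLCs, 92.5, 111 and 82.0 in AFSCs, and 63.8, 65.1 and 67.9 in EpiSCs. ESCs had the highest mean (119 ± 14.5 SD, n = 3) and ESC-ASCs the lowest (50.1 ± 1.79). No pair of neighbours in this order passed the test except AFSCs and ASCs, whose samples overlapped (log2 fold change -0.39 ± 0.15 SE in ASCs, adjusted p = 0.0292). Without the 4 replicate 1 samples named above that difference was -0.23 (adjusted p = 0.109), and it was also lost without ASC replicate 1 (-0.24, adjusted p = 0.148) or AFSC replicate 2 (-0.26, adjusted p = 0.161).

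*Bcl2* (chromosome 1, 106538178 to 106714274, - strand) was the scarcest member in every group but AFSCs, where *Pmaip1* was lower. It was counted 84, 65 and 79 times in AFSCs (levels 12.4, 8.22 and 8.94) and 21, 37 and 36 times in EpiSCs (3.01, 3.56 and 3.75). EpiLC samples had 12, 14 and 21 counts and ASC samples 4, 4 and 9. ESC samples had 2, 5 and 1 counts, and ESC-ASC samples 1, 3 and 2 despite their greater depth. The order from AFSCs through EpiSCs and EpiLCs to ASCs held at each step without overlap of samples (adjusted p from 0.000237 to 0.0203), while ASCs and ESCs overlapped (adjusted p = 0.313). As ESC and ESC-ASC counts were at the floor of a few reads, ratios of summed counts are given with 95% exact intervals that cover counting error only. AFSCs had 25.1 times the ESC level (12.5 to 58.8), EpiSCs 9.03 times (4.40 to 21.5) and EpiLCs 4.54 times (2.12 to 11.1). The ESC level was 3.54 times that of ESC-ASCs (1.08 to 12.4), and the samples overlapped. *Bcl2* shares 558 exonic bases with *D630008O14Rik* on the opposite strand, which had between 0 and 10 counts.

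Within a sample, *Mcl1* made up 86.7% ± 0.778 (SD, n = 3) of the summed level per kb of the 3 anti-apoptotic members in ESCs, 88.7% ± 0.281 in EpiSCs and 91.0% ± 0.437 in AFSCs. The share was 93.7% ± 0.759 in ASCs, 96.1% ± 0.306 in EpiLCs and 96.6% ± 0.0566 in ESC-ASCs. *Bcl2l1* took nearly all of the rest, from 3.35% ± 0.0596 in ESC-ASCs to 13.3% ± 0.788 in ESCs. *Bcl2* reached 0.856% ± 0.233 in AFSCs and was at or below 0.564% elsewhere. Such a share does not depend on the scaling between samples.

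**Figure D2:**
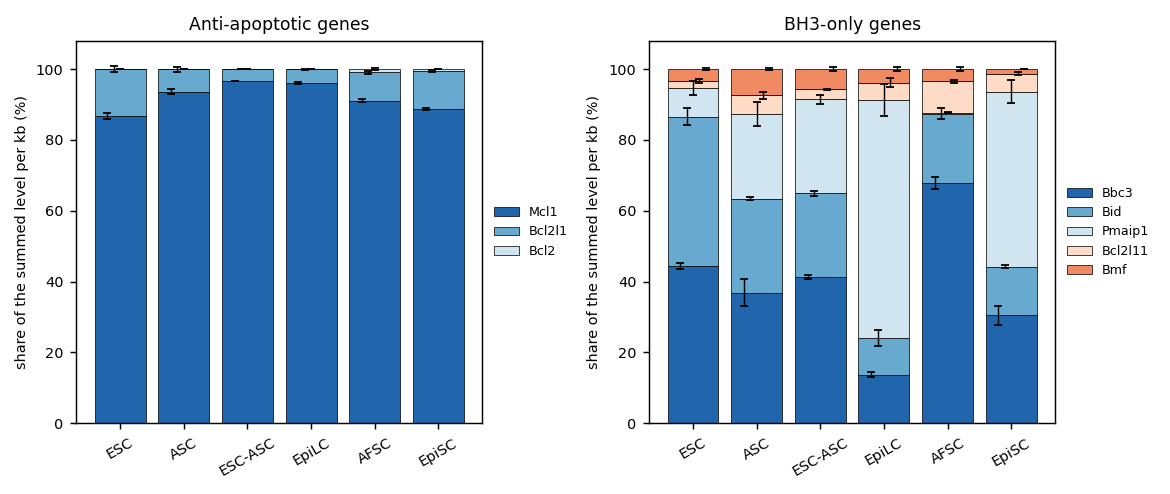
Shares (%) of the summed level per kb of the 3 anti-apoptotic genes (left) and the 5 BH3-only genes (right) in each group, as stacked means of 3 samples with error bars of 1 SD at the top of each segment. *Mcl1* takes 86.7% to 96.6% on the left, and *Pmaip1* takes 67.2% of the right bar in EpiLCs and 0.279% in AFSCs.

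*Pmaip1*, which encodes NOXA, a protein that binds MCL1, had the widest range of the members (chromosome 18, 66458604 to 66465550, + strand). It was counted 2, 2 and 3 times in the AFSC samples and 1593, 1608 and 1431 times in the EpiLC samples. Its level was 696, 538 and 579 in EpiLCs, 229, 188 and 219.7 in EpiSCs, 164, 170.4 and 187 in ESC-ASCs, 85.2, 90.7 and 97.0 in ASCs, 35.0, 26.4 and 29.9 in ESCs, and 1.02, 0.875 and 1.17 in AFSCs. No samples of neighbouring groups overlapped in this order. Each step passed the test, with the least support between EpiSCs and ESC-ASCs (adjusted p = 0.0383). By summed counts with 95% exact intervals for counting error, the ratio to the AFSC level was 581 in EpiLCs (282 to 1445), 204 in EpiSCs (98.8 to 508), 169 in ESC-ASCs (81.8 to 420.2), 88.4 in ASCs (42.7 to 221) and 28.9 in ESCs (13.7 to 72.9). The 2 primed groups lay far apart, with EpiSCs at 212 ± 21.6 (SD, n = 3) and AFSCs at 1.02 ± 0.150.

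After these values were seen, the genes around *Pmaip1* and other genes at the same floor were counted. Of all genes in the files, 25 had at most 3 counts in each AFSC sample and at least 10 in every other sample. The same count was 74 for ESCs, 33 for EpiSCs, 12 for ESC-ASCs, 4 for EpiLCs and 0 for ASCs. These limits were set on raw counts, so the numbers depend on depth, which was lowest in ESC replicate 1 and highest in ESC-ASCs. The nearest tested gene, *Ccbe1*, 156 kb away, was also scarce in AFSCs, with a level between 0 and 0.327 against 0.979 to 2.07 in ESCs, and in EpiSCs, with at most 0.185. *Lman1*, 436 kb away, was expressed in AFSCs, at 65.9 to 123. On the other side, *Gnal*, 623 kb away, was at 4.50 to 6.08 in AFSCs. It was at 28.3 to 40.3 in ESCs, 17.9 to 31.3 in ASCs, 8.57 to 10.8 in EpiSCs and 4.21 to 5.22 in ESC-ASCs and EpiLCs. *Chmp1b*, 738 kb away, was at 53.6 to 90.7 in AFSCs and between 33.2 and 72.5 in the other groups.

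*Bcl2l11*, encoding BIM, which binds all anti-apoptotic members and activates the effectors, was lowest in ESCs (chromosome 2, 128126038 to 128162547, + strand). Its level was 4.41, 8.99 and 9.45 in ESCs, 19.8, 22.8 and 17.9 in ASCs, 18.5, 17.9 and 18.5 in ESC-ASCs, 34.1, 46.6 and 50.6 in EpiLCs, 26.3, 36.0 and 35.9 in AFSCs, and 20.8, 23.2 and 21.2 in EpiSCs. Every sample of the other 5 groups exceeded every ESC sample. EpiLCs and AFSCs, at the top, overlapped (adjusted p = 0.0837). Lower down, ASCs overlapped both EpiSCs (adjusted p = 0.611) and ESC-ASCs (adjusted p = 0.605), while EpiSCs and ESC-ASCs did not overlap but did not pass the test either (adjusted p = 0.261). ESC replicate 1, the shallowest sample, was also the lowest.

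*Bmf*, another BH3-only gene, split the groups otherwise (chromosome 2, 118528757 to 118549687, - strand). Its level was 13.1, 12.9 and 13.0 in ESCs, 22.8, 32.6 and 31.3 in ASCs, 40.2, 35.8 and 35.9 in ESC-ASCs, 29.5, 32.8 and 39.1 in EpiLCs, 12.3, 15.2 and 11.2 in AFSCs, and 5.50, 4.87 and 6.0 in EpiSCs. Both groups in ABCL and the EpiLCs lay above all other samples. Neighbours among those 3 groups did not pass the test (adjusted p = 0.514 and 0.185), nor did ESCs against AFSCs (adjusted p = 0.994). EpiSCs were lower than AFSCs (log2 fold change of 1.26 in favour of AFSCs, adjusted p = 5.1e-05).

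*Bbc3*, encoding the p53-induced protein PUMA, was highest in ESC-ASCs and AFSCs (chromosome 7, 16308393 to 16318205, + strand). Its level was 153, 168 and 187 in ESCs, 103, 178 and 152 in ASCs, 269.9, 256 and 283 in ESC-ASCs, 125, 118 and 125 in EpiLCs, 215, 267 and 272 in AFSCs, and 129.7, 138 and 123 in EpiSCs. ESC-ASCs and AFSCs overlapped (adjusted p = 0.650) and exceeded every sample of the other groups. The 4 lower groups, from ESCs to EpiLCs, overlapped step by step, with adjusted p from 0.188 to 0.733 between neighbours.

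*Bid*, whose protein is cut by caspase 8 and links death receptors to mitochondria, was highest in ESCs and ESC-ASCs (chromosome 6, 120891930 to 120916853, - strand). Its level was 135, 172 and 179 in ESCs, 83.3, 121 and 105 in ASCs, 155, 152 and 154 in ESC-ASCs, 76.5, 104 and 94.7 in EpiLCs, 63.7, 83.8 and 70.0 in AFSCs, and 58.8, 57.3 and 60.2 in EpiSCs. ESCs and ESC-ASCs did not differ detectably (adjusted p = 0.603), and ESC-ASCs exceeded ASCs without overlap (adjusted p = 0.00382). The steps from ASCs down to EpiSCs did not pass one by one (adjusted p from 0.0854 to 0.455). *Bid* shares 628 exonic bases, 17.7% of its exons, with *Bcl2l13* on the opposite strand. As counting did not use strand, reads of these genes could not be separated there.

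The make-up of the 5 BH3-only members differed between groups. In ESCs, *Bbc3* held 44.3% ± 0.883 (SD, n = 3) and *Bid* 42.3% ± 2.33 of their summed level per kb, with *Pmaip1* at 8.07% ± 1.91. In EpiLCs *Pmaip1* held 67.2% ± 4.55 and in EpiSCs 49.4% ± 3.29. In AFSCs *Bbc3* held 67.8% ± 1.76, *Bid* 19.6% ± 1.49, *Bcl2l11* 8.80% ± 0.475 and *Pmaip1* 0.279% ± 0.0544. In ASCs and ESC-ASCs, *Bbc3* was at 36.8% ± 3.76 and 41.3% ± 0.691 and *Pmaip1* at 23.8% ± 3.41 and 26.6% ± 1.20, the latter with overlapping samples. The shares of *Bid* (26.6% ± 0.524 and 23.6% ± 0.728), *Bmf* (7.45% ± 0.266 and 5.72% ± 0.464) and *Bcl2l11* (5.28% ± 0.945 and 2.81% ± 0.0743) were higher in every ASC sample than in any ESC-ASC sample. The levels of *Bid* and *Bmf* themselves were lower in every ASC sample than in any ESC-ASC sample, and those of *Bcl2l11* overlapped. No test was run on the shares. They depend on the division by length: as shares of counts, *Bcl2l11* held 23.3% in AFSCs, level with *Bid* at 22.9%, and in ESCs *Bid* (50.1%) passed *Bbc3* (31.5%).

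The effectors varied least. *Bax* (chromosome 7, 45461697 to 45466898, - strand) was at 1690.3, 1701 and 1669.8 in ESCs, 631, 1108 and 992 in ASCs, 1093, 1029 and 1079 in ESC-ASCs, 1853, 1545 and 1624 in EpiLCs, 1457, 1650.4 and 1391 in AFSCs, and 1062, 1017 and 1144 in EpiSCs. ESCs, EpiLCs and AFSCs formed an upper set and EpiSCs, ESC-ASCs and ASCs a lower one. The step between them, from AFSCs to EpiSCs, did not overlap (adjusted p = 0.0151). Steps within each set did not pass (adjusted p from 0.207 to 0.980). *Bax* shares 192 exonic bases with *Gm45808* on the same strand, so that some fragments were counted for both.

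*Bak1* (chromosome 17, 27019810 to 27029009, - strand) was at 123, 179.9 and 161 in ESCs, 173, 283 and 283 in ASCs, 176, 166 and 176 in ESC-ASCs, 238, 285 and 295 in EpiLCs, 209, 323 and 261 in AFSCs, and 201, 238 and 211 in EpiSCs. No neighbours in the order of its group means passed the test (adjusted p from 0.122 to 0.872). *Bak1* shares 357 exonic bases, 14.8% of its exons, with *Ggnbp1* on the opposite strand, which had between 127 and 921 counts. Reads of these genes could not be separated there, as counting did not use strand. Replicate 1 was the lowest *Bak1* sample in every group but ESC-ASCs. Per kb, *Bax* exceeded *Bak1* in every sample.

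The comparison of ASCs with ESCs sets side by side 2 of the 3 groups with high naive markers. Of the 10 members, 5 were higher in ASCs against 26.4% of all genes tested, and 3 were lower against 23.9%. The BH3-only genes *Pmaip1* (2.97-fold, log2 fold change 1.57 ± 0.14 SE, adjusted p = 5.6e-08), *Bcl2l11* (2.51-fold) and *Bmf* (2.19-fold) rose, as did *Mcl1* (1.39-fold) and *Bak1* (1.56-fold). *Bax* (log2 fold change -0.91 ± 0.16 SE, adjusted p = 9.4e-05), *Bcl2l1* (-0.71 ± 0.15) and *Bid* (-0.68 ± 0.16) fell. At 2-fold or more, 3 members were called against 25.8% of genes. *Bbc3* (log2 fold change -0.26) and *Bcl2* (0.74) did not pass, and *Bbc3* passed with ASC replicate 2 left out (-0.43, adjusted p = 0.0383). The *Bak1* call was lost without ASC replicate 3 (adjusted p = 0.0507) and without ESC replicate 1 (adjusted p = 0.0517).

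The comparison of ASCs with AFSCs, their cells of origin, gave 3 members higher in ASCs (32.8% of all genes) and 5 lower (31.2%). *Pmaip1* rose from 2 or 3 counts to 209, 231 and 234. *Bmf* rose 2.20-fold (log2 fold change 1.14 ± 0.17 SE, adjusted p = 1.5e-05) and *Bid* 1.39-fold. *Bcl2* fell by 3.88 on the log2 scale (± 0.35 SE, adjusted p = 2.1e-08), and by 3.48 without the 4 replicate 1 samples. *Bbc3* (-0.83 ± 0.16), *Bax* (-0.75 ± 0.16), *Bcl2l11* (-0.73 ± 0.20) and *Bcl2l1* (-0.39 ± 0.15) also fell. At 2-fold or more, 3 members passed against 39.4% of genes. *Mcl1* (0.02 ± 0.12) and *Bak1* (-0.13 ± 0.19) did not pass. Besides *Bcl2l1*, the *Bid* call depended on the samples: it was lost without AFSC replicate 1 (log2 fold change 0.40, adjusted p = 0.0527) and without ASC replicate 2 (0.36, adjusted p = 0.0765).

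EpiLCs against ESCs follow the exit from naive pluripotency. Here 6 members were higher in EpiLCs (28.7% of all genes) and 3 lower (26.6%), with 5 at 2-fold or more (34.0%). *Pmaip1* rose 20.1-fold (log2 fold change 4.33 ± 0.15 SE, adjusted p = 3.3e-14) and *Bcl2l11* 5.57-fold (2.48 ± 0.22). *Bmf* (2.62-fold), *Mcl1* (1.87-fold), *Bak1* (1.76-fold) and *Bcl2* rose as well. *Bcl2l1* (-1.07 ± 0.15), *Bid* (-0.82 ± 0.16) and *Bbc3* (-0.47 ± 0.16) fell. *Bax* was at a log2 fold change of -0.01 ± 0.15. The *Bbc3* call was lost without EpiLC replicate 2 (adjusted p = 0.0546) and without ESC replicate 3 (adjusted p = 0.0887).

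EpiSCs against ESCs compare the primed and naive references. All 10 members passed, 4 higher in EpiSCs (29.2% of all genes) and 6 lower (32.0%), with 5 at 2-fold or more (41.0%). *Pmaip1* rose 6.98-fold (log2 fold change 2.80 ± 0.14 SE), *Bcl2l11* 2.73-fold (1.45 ± 0.22) and *Bak1* 1.38-fold, and *Bcl2* was higher as given above. *Bid* (-1.48 ± 0.16) and *Bmf* (-1.26 ± 0.20) fell most, followed by *Bcl2l1* (-0.87 ± 0.15), *Bax* (-0.66 ± 0.15), *Mcl1* (-0.53 ± 0.12) and *Bbc3* (-0.39 ± 0.16). The *Bbc3* call was lost on leaving out any EpiSC replicate but replicate 2, or ESC replicate 2 or 3 (adjusted p from 0.0795 to 0.158). The *Bak1* call was lost without EpiSC replicate 2 or 3 and without ESC replicate 1 or 3 (adjusted p from 0.0706 to 0.174).

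ESC-ASCs against ESCs compare naive cells moved to ABCL with naive cells in 2i and LIF. The study converted 2 ESC lines, and the labels do not say which line either group came from, so culture and line cannot be told apart. Of the members, 5 were higher in ESC-ASCs (30.6% of all genes) and 3 lower (29.6%), with 5 at 2-fold or more (36.4%). *Pmaip1* rose 5.71-fold (log2 fold change 2.51 ± 0.14 SE, adjusted p = 4.4e-11), *Bmf* 2.84-fold (1.51 ± 0.17), *Bcl2l11* 2.29-fold (1.20 ± 0.22), *Mcl1* 1.84-fold (0.88 ± 0.12) and *Bbc3* 1.57-fold (0.65 ± 0.16). *Bcl2l1* fell by 1.27 (± 0.15 SE) and *Bax* by 0.67 (± 0.15). *Bcl2* passed (adjusted p = 0.0427) on 6 counts against 8, and no longer did so without the 4 replicate 1 samples (adjusted p = 0.0816), or without ESC replicate 2 (-1.04, adjusted p = 0.384), ESC replicate 1, or ESC-ASC replicate 1 or 3. *Bid* (-0.10 ± 0.15) and *Bak1* (0.13 ± 0.19) did not pass.

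ESC-ASCs against ASCs compare the 2 groups grown in ABCL. Here 4 members were higher in ESC-ASCs (23.0% of all genes) and 3 lower (27.7%), and 1 passed at 2-fold or more (24.5%). *Pmaip1* (1.92-fold, log2 fold change 0.94 ± 0.12 SE, adjusted p = 6.0e-06), *Bbc3* (1.88-fold), *Bid* (1.5-fold) and *Mcl1* (1.33-fold) were higher. *Bcl2* (-2.47 ± 0.60), *Bcl2l1* (-0.55 ± 0.15) and *Bak1* (-0.51 ± 0.19) were lower. By summed counts, *Bcl2* was 6.08 times higher in ASCs (95% exact interval 2.29 to 18.8, counting error only). *Bmf* (0.38 ± 0.16, adjusted p = 0.0560) and *Bcl2l11* (-0.13 ± 0.20) did not pass, and *Bmf* passed with ASC replicate 2 left out (adjusted p = 0.0424). The *Bak1* call was lost without any ESC-ASC replicate and without ASC replicate 2 or 3 (adjusted p from 0.0679 to 0.133).

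**Figure D3:**
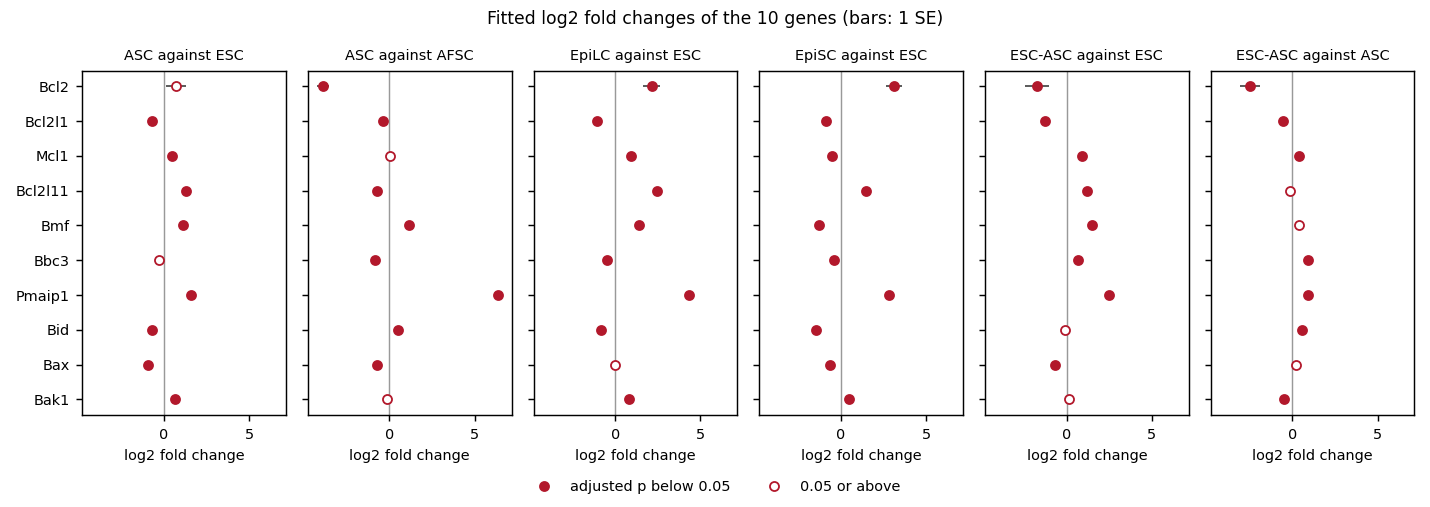
Fitted log2 fold changes of the 10 genes (horizontal axis) in the 6 comparisons, with bars of 1 SE and filled points at an adjusted p below 0.05. *Pmaip1* lies at 4.33 in EpiLCs against ESCs and at 6.38 in ASCs against AFSCs, where its size rests on 2 or 3 AFSC counts, and *Bcl2* lies at -3.88 in ASCs against AFSCs.

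The 6 comparisons share ESC, ASC and ESC-ASC samples and are not independent of each other. Of their 60 fold changes, 50 passed, and 48 of these did so without the 4 replicate 1 samples, all 50 with the same sign. Of the 16901 genes tested, 8503 (ASCs against ESCs) to 10810 (ASCs against AFSCs) passed per comparison. Without those 4 samples 8931 (ASCs against ESCs) to 12067 (EpiSCs against ESCs) did. The median over the 10 members was a log2 fold change of 0.56 in ASCs against ESCs (0.02 over all genes), -0.26 in ASCs against AFSCs (0.02), 0.86 in EpiLCs against ESCs (0.06), -0.46 in EpiSCs against ESCs (-0.04), 0.39 in ESC-ASCs against ESCs (0.03) and 0.31 in ESC-ASCs against ASCs (-0.05).

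The change to ABCL was made from 2 kinds of cell, AFSCs and ESCs, and the difference between the changes was tested in the same fit. It passed for 6 members, and for 58.5% of all genes tested. Depth, counting run, line and the picking of colonies cannot be told apart from the starting cell in this difference. It equals the gap between ASCs and ESC-ASCs less the gap between AFSCs and ESCs, so the starting levels enter it. For *Bcl2l11*, AFSCs against ESCs were at 2.06 and ESC-ASCs against ASCs at -0.13 (adjusted p = 0.605). The same 2 values were 0.57 and 0.91 for *Bbc3*, and -4.81 and 0.94 for *Pmaip1*. *Bcl2l11* fell by 0.73 from AFSCs to ASCs and rose by 1.20 from ESCs to ESC-ASCs (difference -1.93 ± 0.30 SE, adjusted p = 1.6e-05). *Bbc3* likewise fell by 0.83 and rose by 0.65 (difference -1.48 ± 0.22, adjusted p = 1.4e-05). *Mcl1* was at 0.02 against 0.88 (difference -0.86 ± 0.17), and *Bcl2l1* at -0.39 against -1.27 (difference 0.88 ± 0.21). *Bid* was at 0.48 against -0.10 (difference 0.58 ± 0.22, adjusted p = 0.0306), a call lost in 9 of the fits that leave out 1 sample and in the fit with no filter on low counts (adjusted p from 0.0516 to 0.0937). *Pmaip1* rose in both, by more from AFSCs (difference 3.87 ± 0.32), where the size rests on 2 or 3 counts. The difference did not pass for *Bmf*, which rose by 1.14 and 1.51 (adjusted p = 0.203), for *Bax*, which fell by 0.75 and 0.67 (adjusted p = 0.800), for *Bak1* (adjusted p = 0.419) or for *Bcl2* (adjusted p = 0.0525, and 0.0207 to 0.0484 in the 4 fits with 1 sample left out in which it passed).

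**Figure D4:**
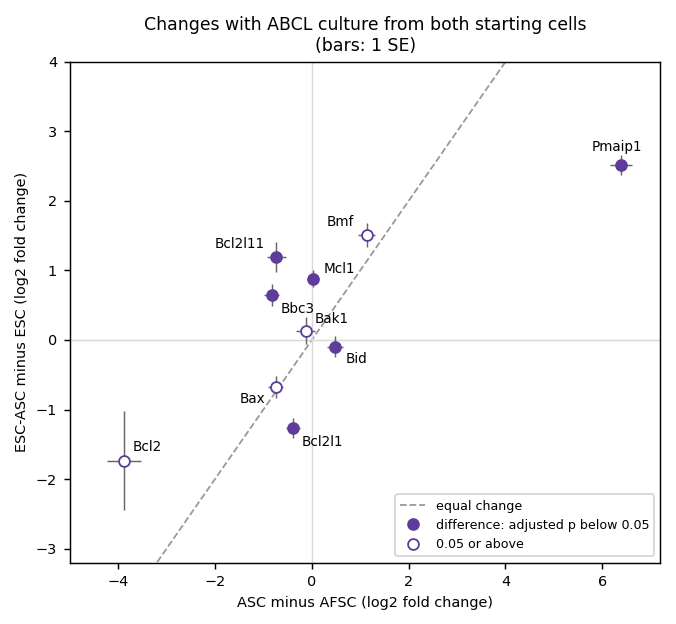
Log2 fold change of each gene from AFSCs to ASCs (horizontal axis) and from ESCs to ESC-ASCs (vertical axis), with bars of 1 SE, a dashed line of equal change, and filled points where the difference has an adjusted p below 0.05. *Bcl2l11* and *Bbc3* lie to the left of 0 and above 0, and *Bax* lies near the line.

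Among 15 other genes of the BCL2 family, 10 were tested. In ESC-ASCs against ESCs 6 of them were higher and 4 lower (30.6% and 29.6% of all genes), in ASCs against ESCs 3 and 3 (26.4% and 23.9%), in ASCs against AFSCs 4 and 5 (32.8% and 31.2%), in EpiLCs against ESCs 4 and 2 (28.7% and 26.6%), in EpiSCs against ESCs 3 and 3 (29.2% and 32.0%), and in ESC-ASCs against ASCs 6 and 1 (23.0% and 27.7%). Their median log2 fold change was 1.10 in ESC-ASCs against ESCs (0.03 over all genes) and between -0.22 and 0.79 in the other comparisons. *Bcl2l14* and *Hrk* had the widest ranges. *Hrk*, another BH3-only gene, was at 0.615 to 1.04 in ESCs, 4.06 to 7.41 in ASCs, 6.08 to 7.73 in EpiLCs and 40.5 to 47.6 in ESC-ASCs, and at most 1.84 in AFSCs and EpiSCs. *Bcl2l14* was at 22.5 to 27.9 in ESCs, between 10.2 and 17.5 in ASCs, ESC-ASCs and EpiLCs, at 0.566 to 1.32 in AFSCs and at 0 to 0.233 in EpiSCs. *Bnip3*, a hypoxia-induced mitophagy receptor with a BH3-like region, was chosen after its values were seen. It was at 67.8 to 75.5 in ESCs, 715 to 911 in ASCs and 1566 to 1718 in ESC-ASCs, 647 to 685 in EpiLCs and at most 135 in AFSCs and EpiSCs.

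Of 16 genes of the apoptosome, caspases and inhibitors of apoptosis, 3 were higher and 8 lower in ASCs against ESCs (26.4% and 23.9% of all genes), 3 and 6 in ASCs against AFSCs (32.8% and 31.2%), 5 and 6 in EpiLCs against ESCs (28.7% and 26.6%), 5 and 7 in EpiSCs against ESCs (29.2% and 32.0%), 2 and 5 in ESC-ASCs against ESCs (30.6% and 29.6%), and 4 and 6 in ESC-ASCs against ASCs (23.0% and 27.7%). Their median log2 fold change lay between -0.39, in ASCs against ESCs (0.02 over all genes), and 0.17. *Cycs*, encoding cytochrome c, was lowest in ASCs (247 ± 41.2, SD, n = 3) and highest in EpiSCs (778 ± 97.1).

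Of the 8 death receptor pathway genes tested (10 listed), 1 was higher and 2 lower in ASCs against ESCs (26.4% and 23.9% of all genes), 0 and 5 in ASCs against AFSCs (32.8% and 31.2%), 1 and 4 in EpiLCs against ESCs (28.7% and 26.6%), 3 and 2 in EpiSCs against ESCs (29.2% and 32.0%), 1 and 5 in ESC-ASCs against ESCs (30.6% and 29.6%), and 1 and 4 in ESC-ASCs against ASCs (23.0% and 27.7%). Their median log2 fold change lay between -0.84, in ESC-ASCs against ESCs (0.03 over all genes), and 0.08. *Casp8*, the protease that cuts BID, was at 70.9 to 110.3 in AFSCs and 28.9 to 41.7 in EpiSCs. It was at 9.69 to 14.8 in ASCs and at most 6.13 in ESCs, EpiLCs and ESC-ASCs. *Cflar*, its inhibitor c-FLIP, was likewise at 17.2 to 22.0 in AFSCs and EpiSCs, at 10.9 to 11.9 in EpiLCs and at most 4.59 in the 3 groups with naive markers. *Bid* itself was lowest in EpiSCs and AFSCs.

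Of 16 target genes of p53, the factor that induces *Bbc3* and *Pmaip1* after DNA damage, 2 were higher and 10 lower in ASCs against ESCs (26.4% and 23.9% of all genes), 2 and 10 in ASCs against AFSCs (32.8% and 31.2%), 0 and 11 in EpiLCs against ESCs (28.7% and 26.6%), 2 and 10 in EpiSCs against ESCs (29.2% and 32.0%), 6 and 6 in ESC-ASCs against ESCs (30.6% and 29.6%), and 8 and 3 in ESC-ASCs against ASCs (23.0% and 27.7%). Their median log2 fold change in EpiLCs against ESCs was -1.04 (0.06 over all genes). *Gdf15* and *Perp* had the widest ranges. *Perp* was at 504 to 586 in AFSCs and at most 148 elsewhere, and *Gdf15* was at 30.8 to 60.6 in ESCs and at 0 to 0.476 in EpiSCs. *Trp53*, the gene for p53, was at 864 ± 61.8 (SD, n = 3) in ESCs and 882 ± 145 in AFSCs, and at 478 ± 99.8 in ASCs, 367 ± 29.1 in ESC-ASCs, 505 ± 43.5 in EpiLCs and 614 ± 7.91 in EpiSCs. It fell against ESCs in ASCs (-0.88 ± 0.15 SE), ESC-ASCs (-1.25 ± 0.15), EpiLCs (-0.77 ± 0.15) and EpiSCs (-0.50 ± 0.15).

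Of 17 regulators of the members (transcription factors, ubiquitin ligases and binding partners), 4 were higher and 4 lower in ASCs against ESCs (26.4% and 23.9% of all genes), 5 and 10 in ASCs against AFSCs (32.8% and 31.2%), 5 and 5 in EpiLCs against ESCs (28.7% and 26.6%), 6 and 4 in EpiSCs against ESCs (29.2% and 32.0%), 6 and 5 in ESC-ASCs against ESCs (30.6% and 29.6%), and 5 and 5 in ESC-ASCs against ASCs (23.0% and 27.7%). Their median log2 fold change was -0.71 in ASCs against AFSCs (0.02 over all genes) and between -0.04 and 0.25 in the other comparisons. *Myc* had the widest range. It was at 203 to 261 in AFSCs, 208 to 234 in EpiLCs and 103 to 129 in EpiSCs, at 37.8 to 65.4 in ASCs, and at 7.26 to 10.1 in ESCs and 3.35 to 7.13 in ESC-ASCs. *Usp9x*, whose product removes ubiquitin from MCL1, was highest in ASCs (401 to 583), at 248 to 273 in ESCs and 212 to 214 in ESC-ASCs, and between 70.4 and 107 in the other groups.

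**Figure D5:**
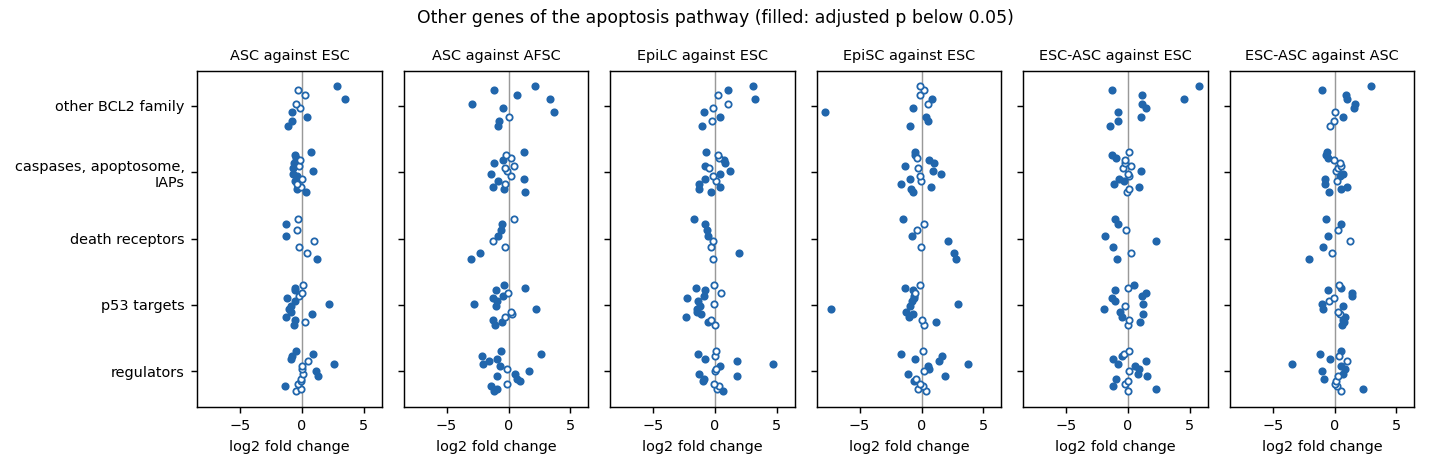
Log2 fold changes (horizontal axis) of the tested genes of 5 apoptosis lists in the 6 comparisons, 1 point per gene, filled at an adjusted p below 0.05. Points of the p53 target list lie mostly to the left of 0 in EpiLCs against ESCs, where 11 of 16 are lower.

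Over the 18 samples, the log2 levels most like that of *Pmaip1* were those of *Neurod1* (Pearson r = 0.977), *Rtl6* (0.972) and *2810429I04Rik* (0.964). For *Bcl2* they were *Ltbr* (0.966), *Parp10* (0.961) and *Igfbp3* (0.959), and for *Bmf* they were *Pik3cd* (0.954), *Snx31* (0.954) and *Aplp1* (0.953). These were picked as the highest of 16900 genes, and the points share groups, so they are a description.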

How the data were processed

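The deposited files hold raw counts of fragments per gene, 1 table per sample. From polyA libraries made with a directional kit, the authors aligned read pairs to the GRCm38 genome by TopHat2 and counted fragments on exons with featureCounts 1.5.0-p1. By the file headers, both ends had to map, fragments overlapping several genes or mapping to several places were counted for each, and strand was not used. Gene symbols were looked up by gene ID in a table of names, for 35514 of 35773 genes. Genes that reached 10 counts in 3 or more samples (16901) were tested in R 4.3.3 with edgeR 4.0.16 (TMM, robust quasi-likelihood fit of all 18 samples, common dispersion 0.0283). Levels were counts over DESeq2 1.42.0 size factors and exonic kb. On the log2 scale, 0.1 was added for correlations and for the range of group means. The standard error is the log2 fold change over the square root of F. Promoters, count ratios and figures were made in Python 3.11.15 (pandas 2.3.3, numpy 2.4.6, scipy 1.17.1, matplotlib 3.10.9). The test was checked on simulated counts in which few genes changed, in 1 group only, and no replicate stood apart. That check does not cover data like these, in which many genes passed and some replicates stood apart.

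The members and gene lists were chosen with earlier results of these data known. Genes were named by rule: the 10 members, the 2 tested genes of each list with the widest range of log2 group means, *Trp53*, the 3 genes most like each of the 3 members with the widest range, and genes whose exons overlap a member's. One gene that the rule names is not reported here. Samples were grouped by their labels. File names use ASC for samples labelled AFSC, and the labels were followed. No 2 replicates held the same counts (chi-square over its degrees of freedom 1.61 to 92.1), and none was left out. Depth limits *Bcl2* and *Pmaip1*, at a few counts in some groups. Alternatives were another tool, scaling, filter, set of samples, thinning of ESC-ASCs and a replicate block.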

Additional observations from a re-analysis of the deposited data

Results flagged for a closer look

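The change to ABCL medium differed between the 2 starting cells, by a test of the difference itself in the edgeR fit (ASCs minus AFSCs against ESC-ASCs minus ESCs, 3 samples in each group, log2 scale), for 6 of the 10 genes. The differences were -1.93 for *Bcl2l11* (SE 0.30) and -1.48 for *Bbc3* (SE 0.22), each of which was lower in ASCs than in AFSCs and higher in ESC-ASCs than in ESCs. They were -0.86 for *Mcl1* (SE 0.17), 0.88 for *Bcl2l1* (SE 0.21), 3.87 for *Pmaip1* (SE 0.32) and 0.58 for *Bid* (SE 0.22). The call for *Bid* was lost in 9 of the fits that leave out 1 sample and without a filter on low counts (adjusted p from 0.0516 to 0.0937). The value for *Pmaip1* rests on 2, 2 and 3 counts in the AFSC samples, and depends on the prior count of the fit. In this test 58.5% of all genes tested passed. The levels of the starting cells enter the difference. For *Bcl2l11*, AFSCs against ESCs were at 2.06, while ESC-ASCs against ASCs were at -0.13 (adjusted p = 0.605). Depth, counting run and the picking of colonies also differ between the 2 changes, and the ESC line is not given. None of these can be told apart from the starting cell.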

How the results depend on the processing

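Recomputing the 60 fold changes of the members under each alternative gave 828 values. Of these 787 stayed on the same side of the threshold, 37 no longer passed and 4 newly passed. Of the fold changes that passed in the main or the alternative fit, 0 changed sign. Changes of sign between values that passed in neither fit were not counted. A filter of at least 10 counts in every sample left out *Bcl2* and *Pmaip1*, lost *Bcl2l1* in ASCs against AFSCs (adjusted p = 0.0669) and *Bbc3* in EpiSCs against ESCs (adjusted p = 0.0561) and, with fewer genes tested, lowered the number of genes called: 10132 for any difference, 4936 in ASCs against ESCs (1507 at 2-fold), 6532 in ASCs against AFSCs (2667 at 2-fold, with 5 members called), 5876 in EpiLCs against ESCs (2421), 6324 in EpiSCs against ESCs (2963), 6503 in ESC-ASCs against ESCs (2752) and 5395 in ESC-ASCs against ASCs (1515). The labels name no pairing by replicate number. Deviations of same-numbered samples correlated between -0.21 and 0.46 (19 of 45 pairs above 0.1). Of 18 samples, 8 correlated best with their own number. Among the replicate 1 samples of ESCs, ASCs, EpiLCs and AFSCs, r lay between -0.06 and 0.46. Whether same-numbered samples share a batch was not tested. With a replicate block, *Bcl2* in ESC-ASCs against ESCs was at -1.73 (adjusted p = 0.0523) and *Bmf* in ESC-ASCs against ASCs at 0.39 (adjusted p = 0.0460), the only members whose calls it changed. Fitting only the 2 groups compared lost *Bcl2l1* (adjusted p = 0.168) and *Bid* (adjusted p = 0.0546) in ASCs against AFSCs and *Bcl2* in ESC-ASCs against ESCs (adjusted p = 0.0759), and gained *Bmf* in ESC-ASCs against ASCs (adjusted p = 0.0490). Without a filter on low counts, *Bcl2* in ESC-ASCs against ESCs (adjusted p = 0.0653), *Bcl2l1* in ASCs against AFSCs (0.0549) and *Bbc3* in EpiSCs against ESCs (0.0648) no longer passed, and with ESC-ASC counts thinned *Bcl2* in ESC-ASCs against ESCs did not (0.0591). Levels moved by less than 1 SD under TMM scaling. Shares computed without dividing by length moved by more than 1 SD in 33 of 36 cases. The fit without 4 replicate 1 samples was chosen after seeing the data.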
